A study of Sus scrofa with 15 samples.

Results

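Leukocyte integrins and the Fc receptor chain were followed through the backfat of Iberian pigs as a panel of 10 genes listed by symbol: ITGB2, ITGAM, ITGAX, ITGAL, ITGA4, ITGB7, ICAM1, VCAM1, FCER1G and LPXN. Of these, 9 were matched to an Ensembl identifier among the 30477 genes that were counted, and all 9 passed the filter on low counts, among 14918 tested genes in all. No identifier was matched to ITGAX, so no value is given for it. All pigs were Iberian, about 1 year old at biopsy, and fed 1 of 3 diets through the growing period. The control group (C) received a rationed compound feed. The DOP group received a rationed compound feed made with dry olive pulp, the partly dried residue of a second extraction of oil. The WCOC group received a compound feed of its own without by-product, also rationed, and in addition a silage of wet crude olive cake and barley straw with free access. RNA from biopsies of subcutaneous backfat of 5 pigs per diet was sequenced, 1 library per pig (15 libraries), after the samples had been selected mainly by the quantity and quality of their RNA. Each diet was given in 1 pen, so that diet and pen cannot be told apart.

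Integrins are pairs of an alpha and a beta chain that span the cell membrane and hold a cell to its neighbours or to the matrix. ITGB2 is the common beta chain of the leukocyte integrins, and its alpha partners are ITGAM (with ITGB2 the complement receptor Mac-1 of myeloid cells), ITGAX and ITGAL (with ITGB2 the receptor LFA-1 of lymphocytes and myeloid cells). ITGA4 pairs with ITGB7 or ITGB1 and guides lymphocytes and other leukocytes out of the blood. ICAM1 and VCAM1 are the surface proteins of the vessel wall, and of some stromal and myeloid cells, to which the beta2 and alpha4 integrins bind. FCER1G is the signalling chain shared by several receptors for antibody and by lectins, and LPXN (leupaxin) is a leukocyte adaptor protein of adhesion sites related to paxillin. In adipose tissue these genes are known mainly from resident and recruited macrophages, other leukocytes and vessels.

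A library held between 22373715 and 34745218 counts on genes, and the medians of C, DOP and WCOC were 27522449, 29104570 and 27098819. The matched genes were read with 35 (LPXN) to 4293 (VCAM1) counts per library. The libraries came from 2 flow cells, as read from the run identifiers: C1 to C4 and all WCOC libraries on the first, and C5 and all DOP libraries on the second, so that WCOC vs. DOP and flow cell cannot be told apart. Adipocyte markers were abundant throughout (9 of 9 matched, summed level 16608.1 to 25546.1 CPM), as the label backfat implies. Skeletal muscle markers (6 of 12 matched) varied between libraries from a summed 22 CPM to 46803.1 CPM, the highest being in DOP5. Levels are given in CPM, the counts on a gene relative to all counts of its library after TMM scaling, and the error is the SD over 5 pigs.

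The genes lie apart on the Sscrofa11.1 assembly, apart from the alpha chains of chromosome 3. ITGB2 (ENSSSCG00000025133) is on chromosome 13 from 207514281 to 207544108, ITGAM (ENSSSCG00000007754) on chromosome 3 from 17216719 to 17272134 and ITGAL (ENSSSCG00000007797) on chromosome 3 from 17817785 to 17858057. ITGA4 (ENSSSCG00000016009) is on chromosome 15 from 86942054 to 87028428, and ITGB7 (ENSSSCG00000000257) on chromosome 5 from 18419432 to 18434376. ICAM1 (ENSSSCG00000013655) is on chromosome 2 from 69097136 to 69107722, VCAM1 (ENSSSCG00000006862) on chromosome 4 from 117496914 to 117511211, FCER1G (ENSSSCG00000006357) on chromosome 4 from 89242467 to 89246344 and LPXN (ENSSSCG00000021176) on chromosome 2 from 12534780 to 12582756. RefSeq places an uncharacterised gene on the opposite strand across ITGB2 and across ITGAM, and the strand option of the counting is not given in the sources used here, so their counts may hold reads of those neighbours.

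The bases before the annotated start are shown for ITGB2 and LPXN, which were called lower on both olive diets, for VCAM1, which was called lower on WCOC, and for ICAM1, its counterpart on the vessel wall, which was not called. Each is the 250 bases upstream of the RefSeq gene start, 5′ to 3′ on the strand of the gene. Capitals mark GAGGAA (or TTCCTC, its opposite strand), the core of the site bound by the myeloid factor PU.1 and other ETS proteins, and matches to the NF-kB motif.
ITGB2, chr13:207544109-207544358, minus strand: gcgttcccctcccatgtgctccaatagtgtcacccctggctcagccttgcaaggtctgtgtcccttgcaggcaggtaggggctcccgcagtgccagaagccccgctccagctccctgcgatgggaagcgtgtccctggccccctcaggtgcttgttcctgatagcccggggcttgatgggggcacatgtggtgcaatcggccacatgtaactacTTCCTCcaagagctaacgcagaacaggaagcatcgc
LPXN, chr2:12534530-12534779, plus strand: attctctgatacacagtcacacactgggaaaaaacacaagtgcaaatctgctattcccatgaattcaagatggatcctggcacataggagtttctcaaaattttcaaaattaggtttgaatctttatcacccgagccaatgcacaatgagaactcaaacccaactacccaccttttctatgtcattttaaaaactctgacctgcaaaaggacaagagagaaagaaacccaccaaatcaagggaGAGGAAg
VCAM1, chr4:117511212-117511461, minus strand: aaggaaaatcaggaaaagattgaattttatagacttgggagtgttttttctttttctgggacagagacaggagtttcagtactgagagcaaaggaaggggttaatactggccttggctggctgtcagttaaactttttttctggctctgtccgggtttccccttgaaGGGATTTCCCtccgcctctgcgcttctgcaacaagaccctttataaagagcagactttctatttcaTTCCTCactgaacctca
ICAM1, chr2:69096886-69097135, plus strand: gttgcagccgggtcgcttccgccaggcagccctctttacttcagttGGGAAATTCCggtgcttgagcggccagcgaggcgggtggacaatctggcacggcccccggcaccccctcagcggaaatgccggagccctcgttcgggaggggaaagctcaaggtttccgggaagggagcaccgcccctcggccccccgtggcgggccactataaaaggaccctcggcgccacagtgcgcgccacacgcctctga

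In windows that also take in 50 bases after the start (300 bases in all), GAGGAA was present on either strand in 6 of 9 genes (FCER1G, ITGAL, ITGB2, ITGB7, LPXN and VCAM1) and in 25.9% of 19556 pig promoters. The NF-kB motif was present in the 2 vessel ligands, ICAM1 (from -204 to -195) and VCAM1 (from -83 to -74), and in 7.04% of the promoters. A match describes the letters of the window and is not a bound site. The annotated starts of ITGB2, ITGAM, ITGA4 and ITGB7 lie 15289, 6993, 5437 and 5130 bases before their coding sequence, and the FCER1G model is partial, so the windows of these genes may not hold the start used in backfat.

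The question put to the beta2 integrins was whether either olive diet changed their level against C, and the common chain was lower on both. ITGB2 was read in C1 to C5 at 28.3, 38.6, 94.5, 40.8 and 104 CPM. It was read in DOP1 to DOP5 at 22.8, 25.4, 10.9, 13.3 and 9.13 CPM, and in WCOC1 to WCOC5 at 14.3, 27.4, 14.9, 14.1 and 25.5 CPM. All C libraries lay above all libraries of both olive diets, and within C the libraries C3 and C5 stood well above the other three. The mean was 61.3 ± 35.2 CPM in C, 16.3 ± 7.32 CPM in DOP and 19.3 ± 6.62 CPM in WCOC (SD, n = 5). ITGB2 was 3.77-fold lower in DOP (log2FC -1.91, SE 0.40, adjusted p = 0.0421, edgeR quasi-likelihood test with Benjamini-Hochberg adjustment) and 3.18-fold lower in WCOC (log2FC -1.67, SE 0.39, adjusted p = 0.0175, same test). Both passed the call rule, an adjusted p under 0.05 with a log2FC of at least 0.58 in size. Without both C3 and C5 the log2FC was -1.14 in DOP (adjusted p = 0.326, edgeR) and -0.90 in WCOC (adjusted p = 0.178, edgeR), so neither call held.

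ITGAM, the myeloid partner of ITGB2, was also highest in C3 and C5. It was read in C1 to C5 at 31.0, 28.6, 67.8, 34.3 and 96.2 CPM. The DOP libraries held 27.5, 28.7, 13.7, 14.5 and 13.1 CPM, and the WCOC libraries 17.4, 24.2, 14, 14.1 and 26.8 CPM. The lowest C library (C2) stood just under DOP2, and all WCOC libraries were below all C libraries. ITGAM was lower in WCOC (log2FC -1.42, SE 0.36, adjusted p = 0.025, edgeR), whereas in DOP a log2FC of -1.41 (SE 0.36) missed the threshold (adjusted p = 0.078, edgeR). Without C3 and C5 these values were -0.70 in WCOC and -0.68 in DOP, with neither called.

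ITGAL, the alpha chain of LFA-1, showed a narrower range. It was read in C1 to C5 at 47.3, 32.6, 39.9, 38.4 and 67.6 CPM. The DOP libraries held 32.7, 31.9, 21.1, 21.8 and 15 CPM, and the WCOC libraries 31.3, 30.4, 32.9, 18.7 and 53.5 CPM. C3, high for ITGB2 and ITGAM, lay in the middle of C for ITGAL, and WCOC5 exceeded 4 of the 5 C libraries. The log2FC was -0.88 (SE 0.27, adjusted p = 0.133, edgeR) in DOP and -0.44 (SE 0.27, adjusted p = 0.324) in WCOC, and neither passed.

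The alpha4 and beta7 chains overlapped between all diets. ITGA4 had means of 10.6 ± 6.08 CPM in C, 6.79 ± 4.13 CPM in DOP and 6.47 ± 2.65 CPM in WCOC (SD, n = 5). Its highest libraries were C5 (21 CPM), DOP2 (13.8 CPM), C3 and WCOC5 (10.4 CPM), and the other 11 lay between 3.62 and 7.55 CPM. ITGB7 was read at 2.90 to 10.3 CPM in C, 2.01 to 13.2 CPM in DOP and 3.91 to 14 CPM in WCOC, with the same libraries C5, DOP2 and WCOC5 at the top of their diets. In DOP the log2FC was -0.65 (SE 0.41) for ITGA4 and -0.22 (SE 0.49) for ITGB7. In WCOC it was -0.72 (SE 0.41) for ITGA4 and -0.03 (SE 0.49, 95% interval from -1.08 to 1.02) for ITGB7. None of the 4 values passed (adjusted p = 0.282 to 0.98, edgeR), and the interval of ITGB7 leaves room for a change of either sign.

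Of the vessel ligands, VCAM1 was lower on WCOC, and ICAM1 did not pass on either diet. VCAM1, the ligand of the alpha4 integrins, was read in C1 to C5 at 79.5, 94.4, 101, 58.5 and 142 CPM. The DOP libraries held 81.8, 78.3, 90.7, 81.8 and 66.3 CPM, and the WCOC libraries 55.0, 68.7, 68.7, 52.3 and 50.8 CPM. The WCOC libraries lay below every C library but C4. VCAM1 was 1.61-fold lower in WCOC than in C (log2FC -0.69, SE 0.18, adjusted p = 0.0302, edgeR) and did not pass in DOP (log2FC -0.25, SE 0.18, adjusted p = 0.507, edgeR). Without C3 and C5 the log2FC was -0.39 in WCOC, no longer called, and 0.04 in DOP.

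ICAM1, the ligand of the beta2 integrins, was read in C1 to C5 at 30.1, 32.9, 33.5, 23.6 and 43.1 CPM. The DOP libraries held 41.3, 51.1, 32.4, 28.9 and 27 CPM, and the WCOC libraries 43.2, 39.1, 40.1, 59.7 and 39.9 CPM. All WCOC libraries were above 4 of the 5 C libraries, but C5 lay among them. The log2FC was 0.15 (SE 0.19, 95% interval from -0.26 to 0.55) in DOP and 0.44 (SE 0.19, 95% interval from 0.04 to 0.85) in WCOC. Neither passed after adjustment (adjusted p = 0.748 and 0.153, edgeR).

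FCER1G and LPXN, which relay signals rather than bind a ligand, repeated the pattern of ITGB2. FCER1G was read in C1 to C5 at 17.7, 17.4, 43.4, 17.6 and 52.8 CPM. The DOP libraries held 17.2, 15.5, 7.84, 9.88 and 6.97 CPM, and the WCOC libraries 10.1, 20.1, 8.98, 7.85 and 17.5 CPM. C3 and C5 were far above the other C libraries, which lay only just above the highest DOP library and among the higher WCOC libraries. FCER1G did not pass in DOP (log2FC -1.38, SE 0.39, adjusted p = 0.106, edgeR) or in WCOC (log2FC -1.21, SE 0.39, adjusted p = 0.0635, edgeR), and without C3 and C5 the log2FC was -0.62 and -0.45.

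LPXN had the largest fold difference of the 9 genes in both comparisons with C. It was read in C1 to C5 at 3.19, 6.02, 16.1, 5.34 and 21.6 CPM. The DOP libraries held 2.61, 2.64, 1.79, 1.65 and 1.22 CPM, and the WCOC libraries 1.67, 4.45, 1.57, 2.03 and 2.6 CPM. All DOP libraries and 4 of 5 WCOC libraries lay below every C library, the exception being WCOC2. LPXN was 5.28-fold lower in DOP (log2FC -2.40, SE 0.49, adjusted p = 0.0385, edgeR) and 4.25-fold lower in WCOC (log2FC -2.09, SE 0.48, adjusted p = 0.0156, edgeR). Without C3 and C5 these values were -1.29 (adjusted p = 0.279, edgeR) and -0.98 (adjusted p = 0.168, edgeR).

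**Figure D1:**
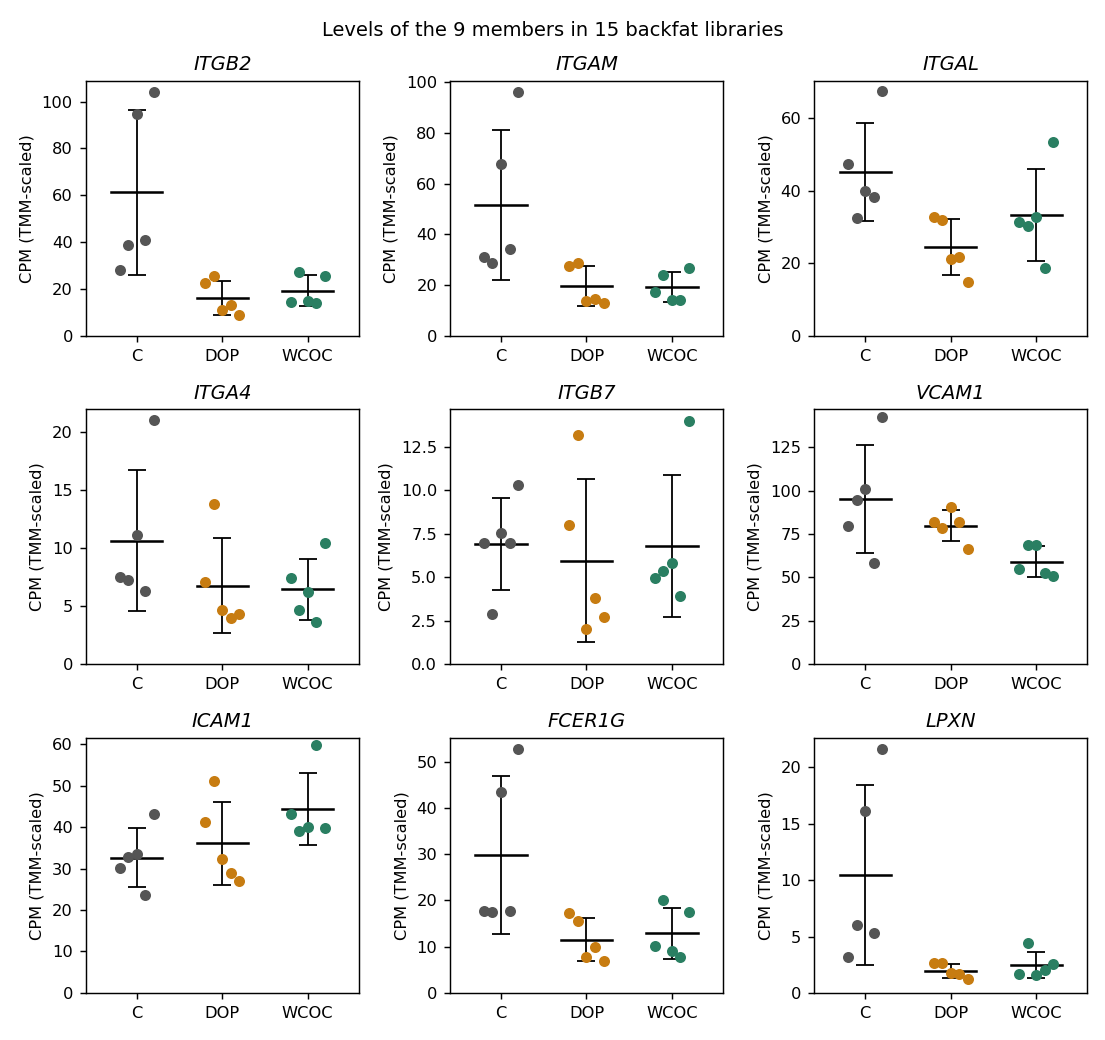
Level of each matched gene in every library (y axis, TMM-scaled CPM, starting at 0) by diet (x axis); each point is 1 pig, the long bar is the mean and the whisker 1 SD over 5 pigs. For ITGB2, ITGAM, FCER1G and LPXN, 2 C libraries stand far above the rest, whereas ICAM1 is highest in WCOC.

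Counted over the panel, 2 of 9 genes (ITGB2 and LPXN) were called in DOP vs. C, both lower, against 0.764% of all tested genes called and 0.55% called lower. The libraries of DOP and C did not overlap for 3 of 9 (ITGB2, FCER1G and LPXN), all lower in DOP, against 1.76% of all tested genes. In WCOC vs. C, 4 of 9 were called (ITGB2, ITGAM, VCAM1 and LPXN), all lower, against 6.25% of all tested genes called and 3.93% called lower. The libraries of WCOC and C did not overlap for 2 of 9 (ITGB2 and ITGAM), both lower in WCOC, against 3.87%. The median log2FC of the 9 genes was -0.88 in DOP and -0.72 in WCOC, beside 0.01 and 0.00 over all tested genes. The genes were chosen with earlier results of these data known, so these counts beside all tested genes are a description and no test of the panel. Both comparisons use the same C libraries, so their likeness is in part built in. In bulk tissue, fewer cells of a type and less RNA per cell cannot be told apart.

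The calls depended on the libraries used. With both C3 and C5 left out, an alternative chosen after seeing the data, 0 of 9 genes were called in either comparison (edgeR), beside 0 and 289 of all tested genes. An unadjusted p under 0.05 was had by 4 of 9 in DOP and 5 of 9 in WCOC, against 11.6% and 18.9% of all tested genes in that fit. With single libraries left out, 0 to 2 genes were called in DOP, with 0 without C3, C5, DOP2, DOP3, DOP4, DOP5, WCOC3 or WCOC5 and 1 without C4 or WCOC4, and 1 to 5 in WCOC, with 1 without WCOC1, 2 without C3, C5 or WCOC4 and 5 without C2 or WCOC2. In the same fits the calls over all tested genes in WCOC ran from 468 to 1163. Those in DOP reached at most 200 and were 0 without C3, C5, DOP2 or DOP4, 4 without DOP3 and 1 without DOP5. On the first flow cell alone, which held 4 C and all WCOC libraries, the WCOC vs. C log2FC was -1.40 for ITGB2 (adjusted p = 0.0502), -1.08 for ITGAM (adjusted p = 0.0599), -1.65 for LPXN (adjusted p = 0.0699) and -0.50 for VCAM1 (adjusted p = 0.0993, all edgeR), so 0 of 9 were called there (6 with an unadjusted p under 0.05, against 24.1% of all tested genes). DOP shared its flow cell with C5 alone, so no value within a flow cell was had for DOP vs. C. Of the C and WCOC libraries only C5 was on the second flow cell. For WCOC vs. C a flow cell covariate therefore does little more than leave out C5, and is no separate check. Without C5 the ITGB2 log2FC was -1.39. With flow cell as a covariate it was also -1.39, and 2 genes were called in WCOC (ITGB2 and LPXN). In DOP that fit called 3 (ITGB2, ITGAM and LPXN), but it sets DOP against C5 alone, the highest C library for these genes, and so gives no check of the calls.

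Between the olive diets, 0 of 9 genes were called (edgeR, and 0 with DESeq2), against 7.76% of all tested genes, and 1 of 9, VCAM1, had an unadjusted p under 0.05, against 28.1% of all tested genes. VCAM1 was at 59.1 ± 8.88 CPM in WCOC and 79.8 ± 8.81 CPM in DOP (log2FC -0.43, SE 0.18, 95% interval from -0.82 to -0.04, adjusted p = 0.134, edgeR). In the fit on only these 2 diets its adjusted p was 0.0426 (edgeR), with a log2FC under the limit of 0.58 in size. For ITGB2 the log2FC was 0.24, with a 95% interval from -0.58 to 1.07, and for LPXN 0.31, from -0.70 to 1.33. For ITGAM it was -0.01, from -0.77 to 0.75, and for ITGAL 0.45, from -0.14 to 1.03. These 4 intervals hold 0 but also differences of more than 0.58 in size, so they do not show that the olive diets acted alike. The libraries overlapped between DOP and WCOC for all 9 genes, against 8.9% of tested genes that did not overlap.

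**Figure D2:**
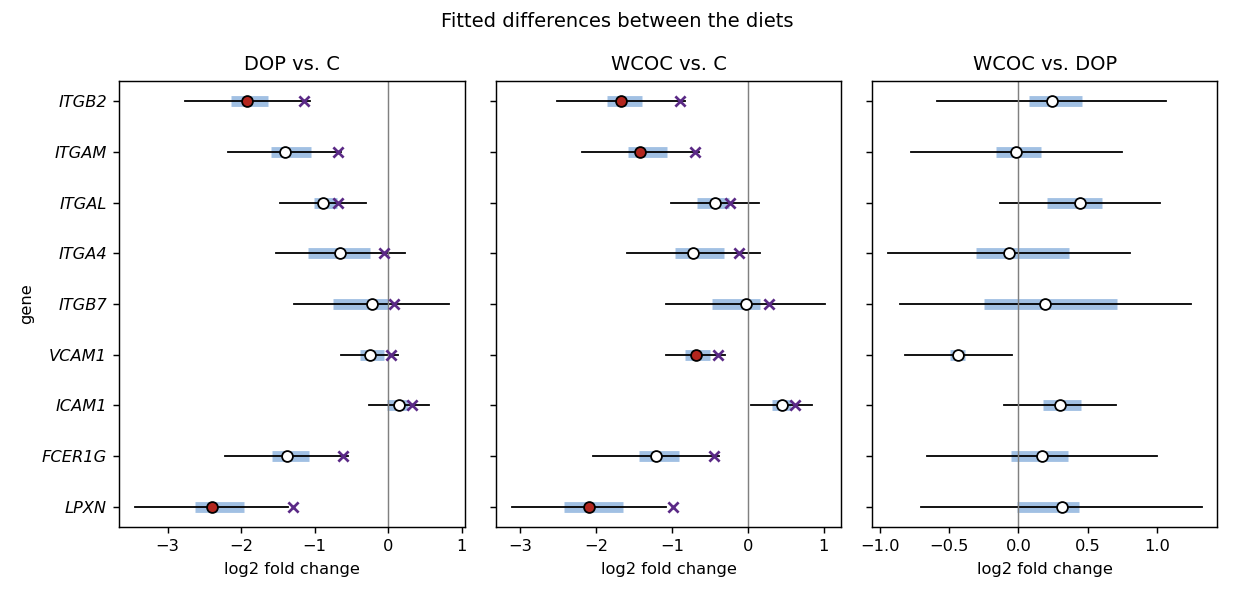
Fitted log2 fold changes (x axis) of the 9 genes (y axis) in each comparison; circles are the fit on all libraries (red where called), black lines its 95% interval, blue bars the range when each library is left out in turn, and crosses the fit without C3 and C5. For ITGB2 and LPXN the crosses lie nearer 0 than the blue bars, and between the olive diets no circle is red.

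Compared per length of exon (CPM per kb), the order of the levels was not the same in the diets. In C it ran from FCER1G (51.5 CPM per kb), VCAM1 (38.3), ITGB2 (20.9), ICAM1 (13.4), ITGAM (8.89), ITGAL (8.70) and LPXN (4.58) to ITGB7 (1.57) and ITGA4 (1.01), and the ranges of all neighbours overlapped. In DOP and WCOC, VCAM1, FCER1G and ICAM1 led (32.1, 19.8 and 14.8 CPM per kb in DOP, 23.8, 22.3 and 18.2 in WCOC), and a gap without overlap separated ICAM1 from ITGB2 (5.57 CPM per kb in DOP and 6.58 in WCOC). The level of the FCER1G model, which is short and partial, is uncertain on this scale.

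Ratios between partners within a library, given as a description, showed how unequal the differences were. In C, DOP and WCOC the log2 ratio of VCAM1 to ICAM1 was 1.51 ± 0.16, 1.18 ± 0.38 and 0.42 ± 0.41 (SD, n = 5), in that order. Its highest WCOC library (0.81) lay below its lowest C library (1.31), and the DOP libraries, from 0.62 to 1.5, overlapped both. In the same order the log2 ratio of ITGAM to ITGB2 was -0.23 ± 0.25, 0.28 ± 0.16 and 0.02 ± 0.18. That of ITGAL to ITGB2 was -0.29 ± 0.73, 0.65 ± 0.23 and 0.78 ± 0.47, with the widest spread in C. The ratio of FCER1G to ITGB2 was -1.03 ± 0.22, -0.48 ± 0.13 and -0.62 ± 0.17, below 0 in all 15 libraries on this scale, which takes no account of length. ITGA4 to ITGB7 stood at 0.58 ± 0.60, 0.37 ± 0.57 and -0.01 ± 0.38, with overlap between the diets.

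**Figure D3:**
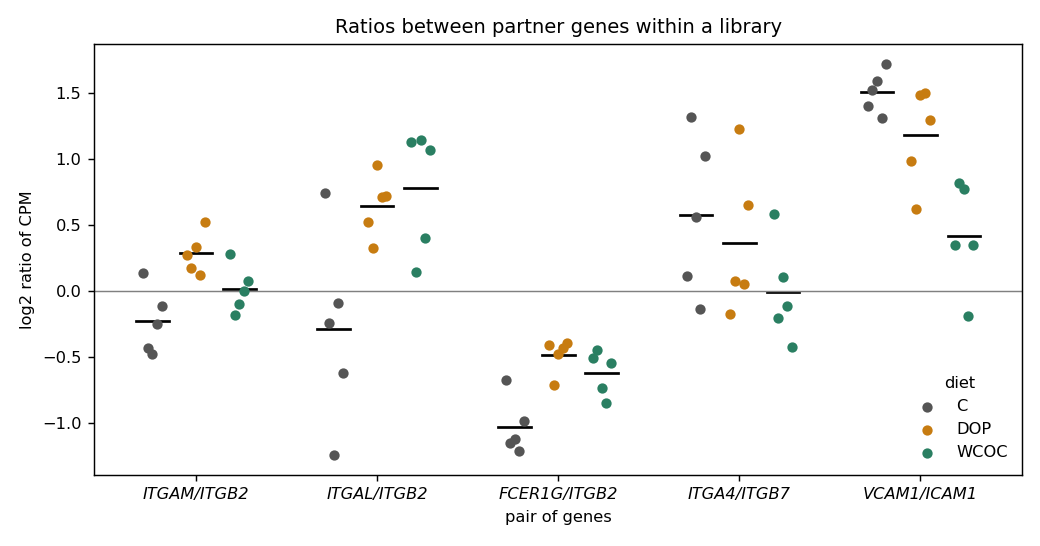
Log2 ratio of CPM (y axis) between partner genes (x axis) in every library; each point is 1 pig, coloured by diet, and bars are means over 5 pigs. The VCAM1/ICAM1 ratio of all WCOC pigs lies below that of all C pigs.

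Within the diets, that is after the diet means were taken off log2 CPM, Pearson's r was above 0 in all 36 pairs of the 9 genes over the 15 libraries and Spearman's rho in 35. Within the 9 libraries of the first flow cell r was above 0 in 27 of 36, and 6 of the 8 pairs with ICAM1 were below 0 there (r from -0.613, with ITGAL, to 0.277). Over all libraries 16 pairs had adjusted p-values under 0.05 for both r and rho (permutation test within diets, 100000 resamples, two-sided, Benjamini-Hochberg over 36 pairs). ITGB2 and ITGAM had r = 0.957 (permutation p = 0.00015, adjusted 0.0013) and rho = 0.957 (permutation p = 8e-05, adjusted 0.0014). Without the 2 libraries farthest from the median (C3 and C5) r was 0.946. ITGB2, ITGAM, FCER1G and LPXN, grouped here after their values were seen, had r between 0.878 and 0.968 in their 6 pairs, 0.827 to 0.966 without the 2 farthest libraries, and 0.829 to 0.966 within the 9 libraries of the first flow cell. ITGAL went rather with ITGA4 (r = 0.824) and ITGB7 (r = 0.830), and these stood at 0.804 and 0.849 within the first flow cell. ICAM1 and VCAM1 were less tied (r = 0.450, adjusted permutation p = 0.14, and rho = 0.311, adjusted permutation p = 0.34), at 0.277 within the first flow cell and 0.728 without DOP2 and WCOC4. The libraries share their depth scaling, and the genes are not independent replicates. These correlations were planned as a description, without p-values. No count was made over pairs of other tested genes, so the 16 pairs do not show a tie particular to the panel.

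**Figure D4:**
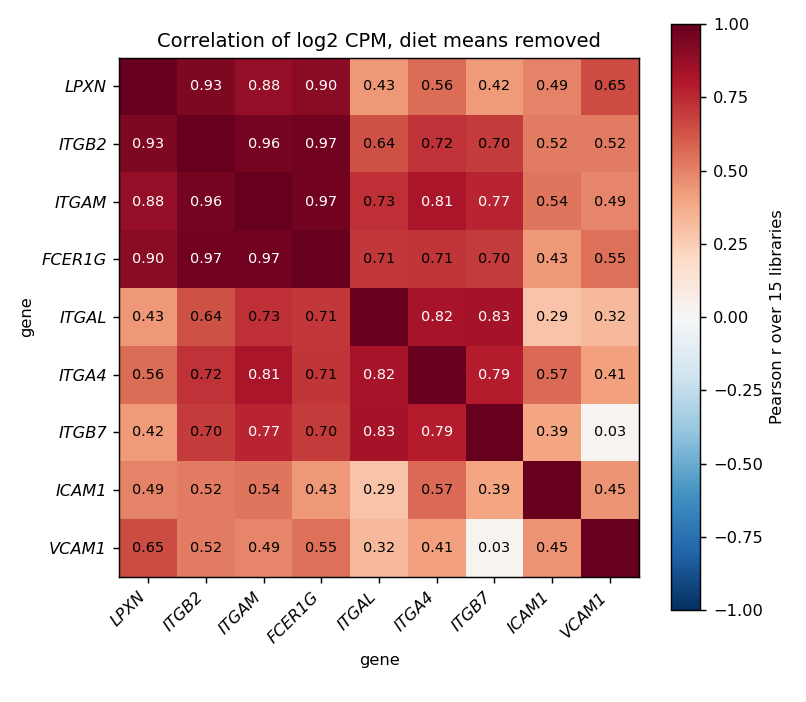
Pearson's r (colour scale and number) of log2 CPM over 15 libraries with diet means removed, for each pair of the 9 genes on both axes. LPXN, ITGB2, ITGAM and FCER1G form the darkest block (0.88 to 0.97), and ICAM1 and VCAM1 the palest rows.

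Among 11946 other named genes, those whose log2 CPM ran most like each of 6 panel genes (up to 3 each) over the 15 libraries, diet means removed, were ranked by Pearson's r. For ITGB2 they were FERMT3 (kindlin-3, which binds the tail of beta integrins, r = 0.982), VAV1 (an exchange factor of haematopoietic cells, r = 0.977) and CD48 (r = 0.972). For FCER1G they were NKG7 (r = 0.984), FERMT3 (r = 0.983) and TYROBP, another ITAM adaptor chain (r = 0.976). ITGAL ran with LY9 (r = 0.943) and JAK3 (r = 0.942), and ITGA4 with PTPRC (CD45, r = 0.960), LCP2 (r = 0.953) and DAPP1 (r = 0.946). ICAM1 ran with TNFSF9 (r = 0.931), ZFP36L2 (r = 0.877) and CHFR (r = 0.868), and VCAM1 with ADAP2 (r = 0.894), ARPC5 (r = 0.880) and SASH1 (r = 0.873), none of which was among those of the other panel genes named here. As the top of a long ranking these values are a description.

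The wider pathway was read from gene lists that were written with earlier results of these data known. Of the other leukocyte integrin chains, 9 of 10 were tested and 0 were called by edgeR in either comparison with C. An unadjusted p under 0.05 was had by 3 in DOP and 1 in WCOC, against 17.6% and 26.4% of all tested genes. The median log2FC was 0.16 in DOP and -0.08 in WCOC. ITGB1, the other partner of ITGA4 and the most abundant of them, stood at 302 ± 43.2 CPM in C, 362 ± 18.3 CPM in DOP and 360 ± 56.4 CPM in WCOC. Of 20 integrin activators and adaptors, 7 in DOP and 5 in WCOC had an unadjusted p under 0.05, against the same shares (median log2FC -0.12 and -0.02). By edgeR 0 were called in DOP and 1 in WCOC. That gene was FERMT3, at 23.9 ± 13.3 CPM in C and 8.45 ± 2.82 CPM in WCOC (log2FC -1.50, SE 0.38, adjusted p = 0.0228, edgeR). In DOP it stood as low, at 8.29 ± 3.4 CPM, and missed the threshold (log2FC -1.53, SE 0.38, adjusted p = 0.0633, edgeR). Of 9 tested adhesion partners, 2 in DOP and 4 in WCOC had an unadjusted p under 0.05, again against 17.6% and 26.4%. By edgeR 0 were called in DOP and 1 in WCOC, CD44, a hyaluronan receptor (log2FC -0.58, SE 0.16, adjusted p = 0.0322, edgeR). The medians were 0.13 and 0.15.

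The list of Fc receptors and genes of ITAM signalling held more calls than the lists above. Of 20 tested, 2 were called lower in DOP and 4 lower in WCOC, against 0.55% and 3.93% of all tested genes. An unadjusted p under 0.05 was had by 11 in DOP and 11 in WCOC, against 17.6% and 26.4%. The medians were -0.80 and -0.74 beside 0.01 and 0.00 over all tested genes. CLEC7A (dectin-1, a receptor for fungal glucans) was lower in DOP (log2FC -3.99) and in WCOC (log2FC -2.80). It stood at 5.04 ± 5.43 CPM in C, with an SD above the mean, 0.317 ± 0.227 CPM in DOP and 0.722 ± 0.357 CPM in WCOC. CLEC5A, a myeloid lectin, was lower in DOP (log2FC -3.81) and in WCOC (log2FC -2.41), with 4.45 ± 4.01 CPM in C. Values of the listed genes without C3 and C5 are not given here. VAV1 (log2FC -1.49) and TREM2, a lipid receptor of macrophages (log2FC -2.40), were called in WCOC alone, with adjusted p = 0.0898 and 0.0507 in DOP (edgeR), and the difference between the olive diets was not called for either. The antibody receptor FCGR1A had means of 1.5 CPM in C, 0.432 CPM in DOP and 0.375 CPM in WCOC, and the kinase SYK, which binds phosphorylated ITAMs, 11.3, 5.66 and 6.68 CPM, with no call for either.

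Markers of leukocyte types moved with these genes to different degrees, and their part in the results was not tested. Macrophage markers (14 of 15 matched, 13 tested) summed to 293 to 867 CPM in C, 200 to 499 CPM in DOP and 146 to 385 CPM in WCOC. C3 (678 CPM) and C5 (867 CPM) were the highest of all libraries, as for ITGB2. Of the 13 tested markers, 1 was called lower in DOP (the scavenger receptor MSR1, log2FC -3.18), against 0.55% of all tested genes. In WCOC 6 were called lower (MSR1, MRC1, SPI1, CD68, AIF1 and CD163), against 3.93%. An unadjusted p under 0.05 was had by 7 in DOP and all 13 in WCOC, against 17.6% and 26.4% of all tested genes. The median log2FC was -0.71 in DOP and -1.19 in WCOC. CD163 was also called lower in WCOC than in DOP (log2FC -1.30), and LYZ was listed at 0 in all libraries. T cell markers (10 of 12 matched) summed to 59.4 to 97.6 CPM in C, 61.9 to 96.1 CPM in DOP and 44.9 to 79.2 CPM in WCOC, with 0 of 10 called in any comparison and 0 with an unadjusted p under 0.05 (edgeR). Neutrophil markers (5 of 11 matched) summed to 23.7 to 92.5 CPM in C, 25.2 to 50.4 CPM in DOP and 13.7 to 65.7 CPM in WCOC with 0 of 4 tested called (1 with an unadjusted p under 0.05 against C in each olive diet, edgeR), and MPO reached at most 2 counts in a library. CSF3R had means of 18.4 CPM in C, 4.74 CPM in DOP and 4.39 CPM in WCOC. S100A12, the most abundant of them, had 31.2, 31.0 and 23.9 CPM. B cell markers (7 of 8 matched) summed to 1.45 to 3.15 CPM in C, 1.88 to 14.9 CPM in DOP and 1.75 to 10.3 CPM in WCOC, with the highest sums in DOP2 and WCOC5, with CD79A at 0 and with 0 of 3 tested called (edgeR, 1 with an unadjusted p under 0.05 in WCOC). In those libraries ITGB7 and ITGA4 were also highest within their diets.

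The other lists held at most 1 call each against C. Over all tested genes, 0.764% were called in DOP vs. C, 6.25% in WCOC vs. C and 7.76% in WCOC vs. DOP. Of the natural killer markers (4 tested), NKG7 was called lower in WCOC (log2FC -1.70, SE 0.44, adjusted p = 0.027, edgeR), and of the dendritic markers (6 tested), XCR1 was called lower in WCOC (log2FC -1.83). In WCOC vs. C, 1 of the 4 and 3 of the 6 had an unadjusted p under 0.05, against 26.4% of all tested genes. The medians were -0.27 and -0.32, with 3 of 4 and 4 of 6 below 0. XCR1 was low, at 1.25 CPM in C and 0.35 CPM in WCOC. ZBTB46, a dendritic marker, ran the other way, at 29.6 and 43.0 CPM. Of 5 tested mast cell markers, the receptor KIT was called higher in DOP (log2FC 0.78) and in WCOC (log2FC 0.87), and HDC was called lower in WCOC than in DOP (log2FC -1.65). In WCOC vs. C the median of the mast cell list was -0.67, with 3 of 5 below 0. All 5 had an unadjusted p under 0.05, against 26.4% of all tested genes. MS4A2 had means of 19.9 CPM in C and 12.5 CPM in WCOC, and HDC 1.64 and 0.788 CPM. Endothelial markers, of the cells that carry VCAM1 and ICAM1, summed to 1001.2 to 1268.9 CPM in C, 1301.2 to 1685.6 CPM in DOP and 1112.4 to 1800.5 CPM in WCOC. Of 8 tested, the tight junction gene CLDN5 was called higher in WCOC (log2FC 0.75, SE 0.16, adjusted p = 0.0123, edgeR), and the medians were 0.32 in DOP and 0.41 in WCOC. An unadjusted p under 0.05 was had by 4 in DOP and 6 in WCOC, against 17.6% and 26.4% of all tested genes. Below 0 were 1 of 8 in DOP and 0 of 8 in WCOC. ADIPOQ was called higher in WCOC among 9 adipocyte genes (log2FC 0.66). Of these 9, an unadjusted p under 0.05 against C was had by 2 in DOP and 5 in WCOC, with 2 and 3 of 9 below 0. Against C, 0 of 6 skeletal muscle genes were called (2 with an unadjusted p under 0.05 in DOP and 0 in WCOC, edgeR). Between the olive diets, 4 of the 6 (TNNC2, MYL1, DES and TNNT3) were called lower in WCOC, with log2FC from -6.03 to -5.00, and PLIN4 (log2FC 0.70) and LEP (log2FC 1.08) were called higher.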

How the data were processed

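Backfat RNA of 15 pigs was sequenced as paired-end reads. Per the methods of the authors, untrimmed reads were aligned to Sscrofa11.1 with HISAT2 set for stranded reads and assigned to genes by HTSeq-count. The deposited files hold raw counts per Ensembl gene, neither normalized nor pooled. Software versions, the annotation release and the strand option of the counting are not given in the sources used here. The 5 summary lines of each file were left out, and diet and replicate came from the labels.

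The tests were made with edgeR 4.0.16 (R 4.3.3). After filterByExpr (14918 genes) and TMM scaling, all 15 libraries entered 1 quasi-likelihood fit (common dispersion 0.0814) with diet as the factor. P-values were two-sided and adjusted by Benjamini-Hochberg across the genes tested. A call required that the adjusted p lay under 0.05 and that the log2FC was 0.58 or more in size. The authors used DESeq2 (here 1.42.0), which was run as an alternative. Log2 CPM used a prior count of 1. The workflow was tested on simulated data. Lengths, positions and promoter sequences are those of RefSeq for Sscrofa11.1, and 9 of 10 genes were matched. The genes, the gene lists and the rule for named genes (the 3 nearest by correlation, and up to 4 called genes of at least 1 CPM per list and comparison with C, otherwise its most abundant gene) were chosen with earlier results of these data known; ITGAX/ITGB2 could not be computed, and FCGR1A, SYK, AIF1, CD163, XCR1, HDC, MS4A2, TNNC2, MYL1, DES, TNNT3, PLIN4 and LEP were named after their values were seen. CSF3R was also named after its values were seen. All 14 lists are described. One result of the named genes rule is not reported here. Nothing in the labels ties the pigs of different diets to each other. Depth ran from 22373715 to 34745218 counts per library.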

Additional observations from a re-analysis of the deposited data

Results flagged for a closer look

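One of 27 groups tested (9 genes in 3 diets, 5 libraries each) held a library far from the others. The ICAM1 level of WCOC4 was 59.7 CPM, while the other WCOC libraries lay between 39.1 and 43.2 CPM. On the log2 scale its gap to the nearest library took 0.763 of the range of the diet, above Dixon's critical value of 0.71 for 5 libraries. Chance alone passes that limit in about 1 of 20 groups. WCOC4 also had the lowest VCAM1/ICAM1 ratio of all libraries (log2 ratio -0.19).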

How the results depend on the processing

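Against 2 called genes in DOP vs. C, 0 were called in the fit on only the 2 diets compared, with the replicate number as a block, or without C3 and C5, and 5 with DESeq2 (ITGB2, ITGAM, ITGAL, FCER1G and LPXN). Leaving out single libraries gave 0 to 2. Against 4 in WCOC vs. C, 0 were called with the replicate block, on the first flow cell alone, or without C3 and C5. There were 2 with flow cell as a covariate and 1 to 5 with single libraries left out. DESeq2 called 5 in WCOC (ITGB2, ITGAM, VCAM1, FCER1G and LPXN). Between the olive diets 0 were called in all 24 alternatives. Over all tested genes, 114, 933 and 1158 were called (DOP vs. C, WCOC vs. C, WCOC vs. DOP), against 0, 473 and 561 with the replicate block. DESeq2 called 518 in DOP and 1215 in WCOC, and the fit on 2 diets called 2 in DOP. Replicate numbers did not pair the pigs: deviations of same-numbered libraries correlated above 0.1 in 3 of 15 pairs, and 1 of 15 libraries correlated best with its own number.

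Signs turned for values of at most 0.31 in size on all libraries. Without C3 and C5, ITGB7 was 0.08 and VCAM1 0.04 in DOP, and ITGB7 0.28 in WCOC. With flow cell as a covariate ICAM1 was -0.26 in DOP, which that fit sets against C5 alone, and ITGB7 0.16 in WCOC, and on the first flow cell alone ITGB7 was 0.15. With single libraries left out, the range was -0.02 to 0.27 for ICAM1 in DOP and -0.47 to 0.16 for ITGB7 in WCOC. In WCOC vs. DOP it was -0.16 to 0.16 for ITGAM, -0.31 to 0.36 for ITGA4, -0.25 to 0.71 for ITGB7, -0.05 to 0.36 for FCER1G and -0.01 to 0.44 for LPXN. For ITGB2, ITGAM, ITGAL, ITGA4, FCER1G and LPXN the log2FC against C stayed below 0 in all alternatives run. Without C3 and C5, however, ITGA4 was close to 0, at -0.05 (SE 0.41) in DOP and -0.12 (SE 0.41) in WCOC. In that fit ITGAL was -0.69 in DOP and -0.24 in WCOC, and ICAM1 0.32 and 0.62, with none of these called. The cause of these changes was not tested.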
